A study of Mus musculus with 10 samples.

Results

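Translation initiation factors are taken here as the protein-coding mouse genes whose symbols begin with Eif1 to Eif6. In GENCODE M21, 55 genes fit that rule and 54 of them had a transcript among the deposited values, out of 26206 genes with 1 transcript each. Eif4e1b had no listed transcript and was not analysed here. Eif2s3y (0 to 0.113 RPKM) and Eif5a2 (0.002 to 0.021 RPKM) stayed under the filter of 1 RPKM in at least 2 libraries. The other 52 were tested, among 12990 genes in all, and each had at least 3.64 RPKM in all 10 libraries, so none passed through 1 group alone. RPKM is the number of reads on a transcript per kilobase of its length, scaled to the reads of the library, so levels can be set side by side between genes.

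The RNA came from ER-Hoxa9-Lys-GFP cells, a cultured C57BL/6 mouse line grown in medium with stem cell factor. In such lines Hoxa9 fused to the hormone-binding domain of the estrogen receptor works only while estradiol (E2) is present. There were 5 groups of 2 libraries: untreated cells, kept in E2; cells without E2 for 24, 40 or 72 h and then returned to it for 96, 80 or 48 h (called the 24 h, 40 h and 72 h groups); and cells without E2 for 120 h. Time back in E2 shortened as time without it lengthened, so effects of these times cannot be told apart. All carry the ER-Hoxa9 and Lys-GFP constructs, so no group shows wild-type cells. The design text names more withdrawal durations with add-back than were analysed here. The labels do not say whether the line is 1 clone, or whether the 2 libraries of a group came from separate cultures, and the p-values therefore measure spread among these samples alone, possibly a technical one. The series asks how long E2 can be absent before its return no longer keeps the cells from differentiating.

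Initiation is the step at which a ribosome is brought to an mRNA and placed on its start codon. eIF2 delivers the initiator tRNA to the small subunit, eIF3 is the large scaffold that holds the complex together, and eIF4F (the cap-binding eIF4E, the scaffold eIF4G and the helicase eIF4A) loads it at the cap. Phosphorylation of eIF2 by the eIF2 kinases and capture of eIF4E by 4E-binding proteins are the best known brakes on this step. In blood cell formation, progenitors grow and make protein quickly, and granulocytes stop dividing as they mature.

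Library denominators, recovered from the steps in the values, were 173622000 to 204386800 reads. A single read over 2 kb adds 0.00245 to 0.00288 RPKM, and counting error is small for the 52 tested genes. The summed RPKM of 5 progenitor markers was 1239.6 to 1523 from untreated to 40 h, 619 and 659 at 72 h, and 106 and 75.5 at 120 h. That of 7 neutrophil markers was 41.2 to 59.5 up to 40 h, 326 and 528 at 72 h, and 23386 and 22328 at 120 h. The 6 monocyte and macrophage markers summed to 5.08 to 51.9 up to 40 h, 645 and 707 at 72 h, and 1325 and 1288 at 120 h. The 5 eosinophil, basophil and mast cell markers were highest at 72 h (1355 and 1536, against 186 to 568 in the other 8 libraries). The 6 erythroid and megakaryocyte markers summed to 6.79 to 18.4 RPKM in all 10 libraries, the 5 lymphoid markers to 42.5 and 44 untreated and 0.927 to 2.76 at 72 and 120 h, and the 5 stress and RNA quality genes to 122 to 137 up to 40 h, 67.9 and 76.5 at 72 h, and 172 and 246 at 120 h. Of the stress sum, Ddit3 alone was 129.6 and 128 untreated, 52.0 and 46.8 at 72 h, and 53.3 and 46.6 at 120 h. The rest of that sum was therefore small in untreated cells and larger than Ddit3 at 120 h. No marker was at 0 in all libraries. Mitochondrially encoded mRNAs held 2.60 and 3.06% of coding RPKM at 72 h and 1.41 to 2.11% in the others. The part of these differences in the results below was not tested, and in bulk RNA fewer cells of a type cannot be told apart from less RNA per cell.

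Together the 54 genes held 1.47 and 1.44% of the RPKM of nuclear coding genes in untreated cells, 1.49 and 1.51% in the 24 h group, 1.57 and 1.56% in the 40 h group, 1.64 and 1.60% in the 72 h group and 0.909 and 0.787% in the 120 h group. The 2 libraries of the 120 h group lie below all others. Levels spanned a wide range: Eif5a (799 to 832 RPKM untreated) and the helicase Eif4a1 (571 and 617) were the highest, and Eif2ak2, the lowest of the tested genes, had 6.76 and 7.06 RPKM. The 120 h libraries also differed from each other: 41 of 52 initiation factor genes were lower in the one numbered 2, by a median of 0.38 on the log2 scale, against 56.0% of all tested genes and a median of 0.05. The same held for 40 of 52 at 72 h (median 0.12 lower; 45.7% of all genes) and 34 of 52 at 40 h (median 0.06 lower; 44.9%).

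**Figure D1:**
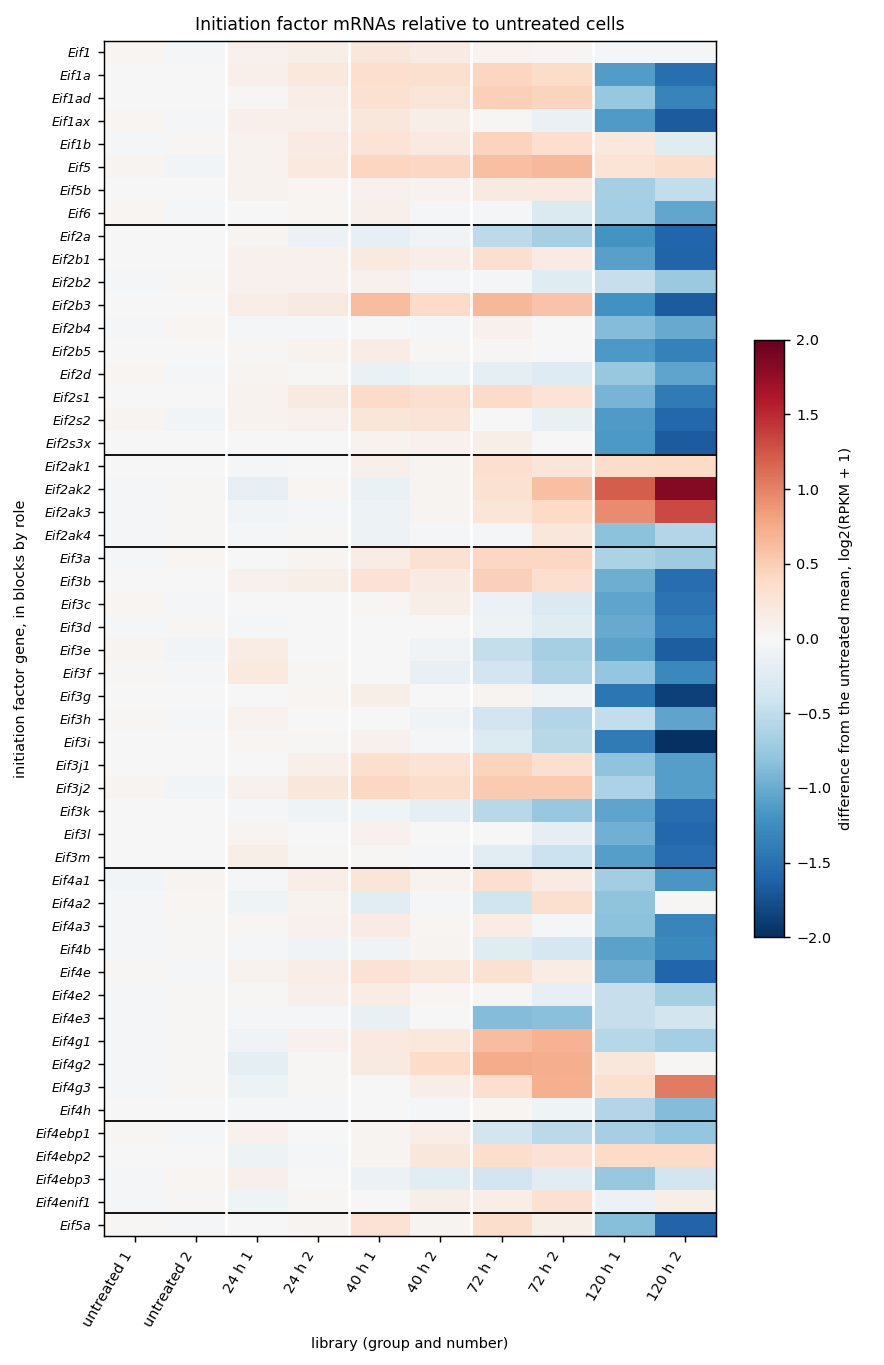
Level of each tested initiation factor gene in each of the 10 libraries, as the difference in log2(RPKM + 1) from the gene's mean in untreated cells (colour), with genes in rows by role and libraries in columns by hours without E2. Most rows are lower in the 2 libraries of the 120 h group, and the eIF2 kinases Eif2ak2 and Eif2ak3 are higher there.

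After 120 h without E2, most initiation factor mRNAs fell. Of the 52 genes, 41 were lower and 6 higher than in untreated cells (limma, Benjamini-Hochberg adjusted p under 0.05), and 5 were not called. Among all tested genes 80.3% were called, 52.7% lower and 27.5% higher, so the share of initiation factor genes called lower stood above a background that was itself large. Their median log2 fold change was -0.93, against -0.36 over all genes tested, and 24 of 52 were called lower by at least 1 on the log2 scale, against 25.3% of all genes. Median-of-ratios scaling moved the median of all genes to -0.035, giving 4962 higher and 5246 lower among all genes where the deposited scale gave 3578 and 6850. Under it 35 initiation factor genes were lower and 10 higher, with a median of -0.55. The 41 lower calls held when any 1 library was left out, and 35 of them held under every alternative tried.

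All 14 eIF3 genes fell, by a median of 1.25 on the log2 scale, beside 52.7% of all genes called lower and a median of -0.36 over all genes. Eif3i, a WD-repeat subunit, had 106 and 64.0 RPKM in the 120 h libraries, against 283 and 287 RPKM in untreated cells. Both 120 h libraries were far under both untreated ones (log2 fold change -1.78, SE 0.21, limma adjusted p = 7.98e-05), and this was the largest change of any initiation factor gene at 120 h. Eif3g, an RNA-binding subunit, followed with 49.8 and 36.9 RPKM at 120 h, against 136 and 138 RPKM untreated (log2 fold change -1.66, SE 0.13, limma adjusted p = 7.99e-06). Eif3k, the most abundant subunit mRNA untreated, had 169 and 122 RPKM at 120 h, against 349 and 353 RPKM (log2 fold change -1.28, SE 0.15, limma adjusted p = 8.40e-05). The smallest fall was that of Eif3a, the largest subunit, with 87.2 and 82.6 RPKM at 120 h, against 132 and 139 RPKM (log2 fold change -0.67, SE 0.09, limma adjusted p = 0.000125). Eif3b, Eif3c, Eif3d, Eif3e, Eif3f, Eif3l and Eif3m changed by -1.24, -1.26, -1.20, -1.35, -1.03, -1.27 and -1.31. For none of the 14 did the 120 h and untreated libraries overlap. The share of all genes without overlap was not counted, and 80.3% of them were called. The fall of Eif3h (-0.77) was not called under median-of-ratios scaling (-0.37).

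The 10 genes for eIF2, its exchange factor eIF2B and the alternative tRNA carriers Eif2a and Eif2d also all fell (median log2 fold change -1.30). Beside them, 52.7% of all genes were called lower, and the median over all genes was -0.36. The 3 subunits of eIF2 moved by similar amounts: Eif2s1, the subunit that the kinases phosphorylate, had 18.4 and 13.0 RPKM at 120 h, against 36.1 and 36.2 RPKM untreated (log2 fold change -1.17, SE 0.14). Eif2s2 and Eif2s3x changed by -1.35 and -1.40. Within eIF2B, which reloads eIF2 with GTP, Eif2b1 and Eif2b5 changed by -1.34 and -1.26. Eif2b3 fell most of its subunits, to 5.66 and 3.84 RPKM at 120 h, against 14.5 and 14.3 RPKM untreated (log2 fold change -1.44, SE 0.15, limma adjusted p = 3.18e-05). Eif2b2 fell least (22.9 and 18.7 RPKM, against 31.4 and 32.5 RPKM; log2 fold change -0.60), and was not called under median-of-ratios scaling (-0.22). Eif2a, whose product is unrelated to the eIF2 subunits in spite of its name, had 35.2 and 26.4 RPKM, against 82.4 and 80.9 RPKM (log2 fold change -1.39, SE 0.14).

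The eIF2 kinases went the other way, with 3 of 4 higher, beside 27.5% of all genes. Eif2ak2 encodes PKR, the kinase that senses double-stranded RNA and is induced by interferon. It had 17.4 and 27.1 RPKM in the 120 h libraries, against 6.76 and 7.06 RPKM in untreated cells. Its rise was the largest among initiation factor genes (log2 fold change 1.52, SE 0.20, limma adjusted p = 0.000126). Eif2ak3, or PERK, the kinase of endoplasmic reticulum stress, had 15.7 and 20.6 RPKM, against 7.53 and 7.83 RPKM (log2 fold change 1.13, SE 0.12, limma adjusted p = 5.07e-05). These were the only 2 initiation factor genes called higher by at least 1 on the log2 scale, where 14.4% of all genes were. Eif2ak1, the heme-regulated kinase HRI, had 30.3 and 31.0 RPKM, against 23.2 and 23.3 RPKM (log2 fold change 0.38, SE 0.07, limma adjusted p = 0.000766). Eif2ak4, or GCN2, the sensor of uncharged tRNA, fell to 4.50 and 5.42 RPKM, against 8.53 and 8.80 RPKM (log2 fold change -0.70, SE 0.11, limma adjusted p = 0.000447). All 4 calls held under every alternative and without any 1 library.

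For Eif2ak2, the gene with the largest rise, the search was for GAAA repeated after a gap of 2 bases, on both strands, which is the core of interferon-stimulated elements. The window shown lies at chr17:78882535-78882564 on the minus strand (RefSeq, GRCm38.p6), and the match in it, in capitals, starts 18 bases after the first base of the gene.
Eif2ak2: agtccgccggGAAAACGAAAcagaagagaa
Of the 41 tested initiation factor genes with a promoter in the table, 4 held this repeat (9.76%), against 4.09% of tested genes and 3.44% of all promoters. The other 3, Eif2s1, Eif2s3x and Eif3a, were lower at 120 h.

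**Figure D2:**
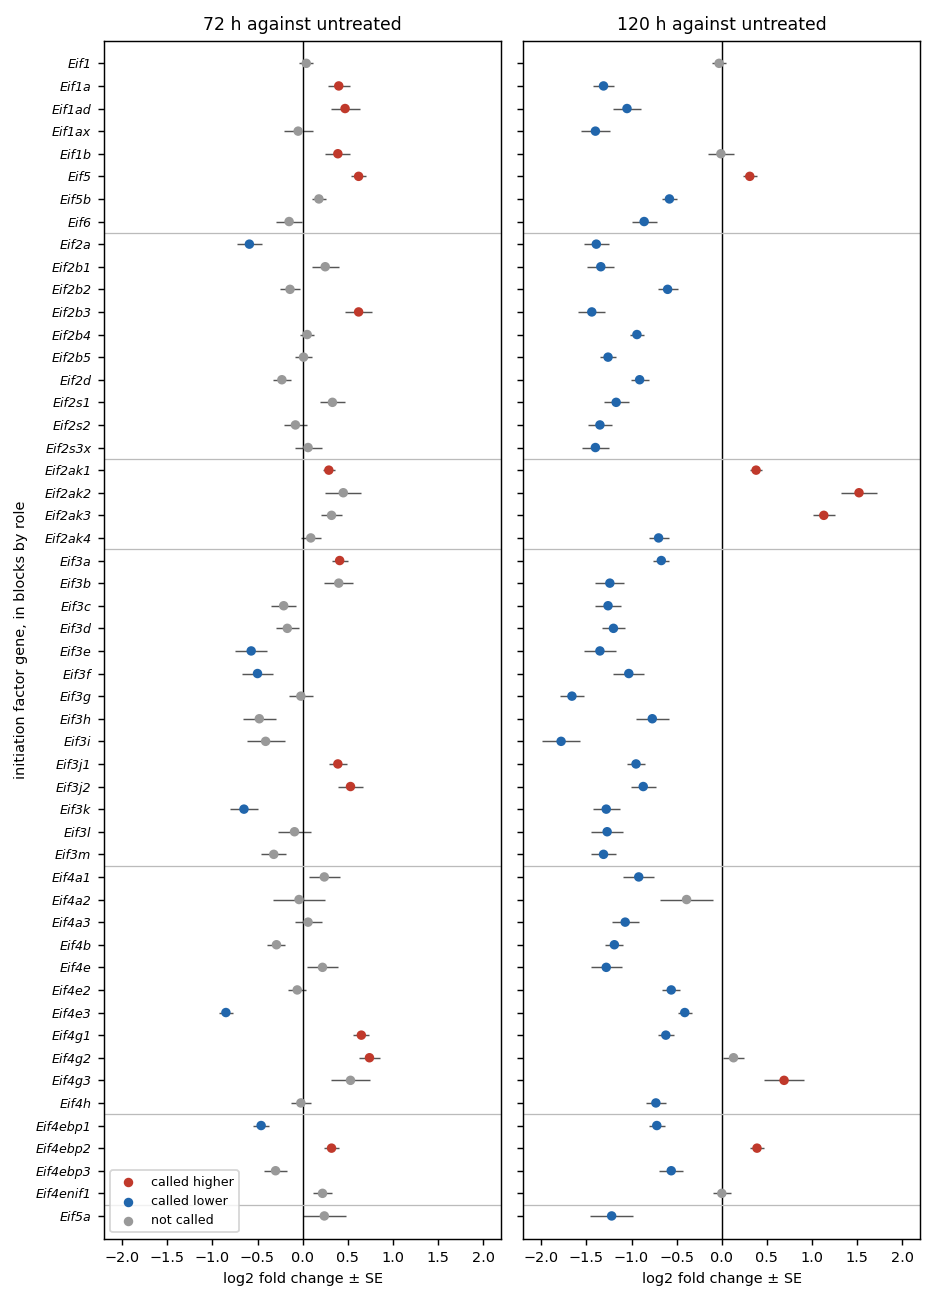
Log2 fold change (with its standard error) of each tested initiation factor gene, 72 h against untreated (left) and 120 h against untreated (right), in blocks by role, with red for genes called higher, blue for called lower and grey for not called (limma adjusted p under 0.05). At 72 h the points run from -0.85 for Eif4e3 to 0.74 for Eif4g2, and at 120 h from -1.78 for Eif3i to 1.52 for Eif2ak2.

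Of the 11 genes for eIF4F and its partners, 8 fell and 1 rose, beside 52.7 and 27.5% of all genes. Of the 8, Eif4e2 (-0.56) and Eif4e3 (-0.41) were not called under median-of-ratios scaling (-0.17 and -0.03). Eif4e, the cap-binding protein, had 20.5 and 13.3 RPKM at 120 h, against 42.6 and 40.9 RPKM untreated (log2 fold change -1.28, SE 0.17, limma adjusted p = 0.000132). The helicase Eif4a1 had 368 and 265 RPKM, against 571 and 617 RPKM (log2 fold change -0.92, SE 0.17). Its helper Eif4b, the exon junction helicase Eif4a3 and Eif4h changed by -1.19, -1.07 and -0.73. The scaffold genes split: Eif4g1 had 66.0 and 61.7 RPKM, against 97.0 and 101 RPKM (log2 fold change -0.62, SE 0.09), and Eif4g3 had 22.4 and 37.5 RPKM, against 17.4 and 17.9 RPKM (log2 fold change 0.69, SE 0.22, limma adjusted p = 0.0171). The rise of Eif4g3 rests on few libraries, since without the higher 120 h library it was 0.33 (limma adjusted p = 0.0593) and without either untreated library it was not called (0.0681 and 0.0558). Eif4g2, a scaffold that lacks the eIF4E-binding site, was not called (178 and 155 RPKM, against 149 and 155 RPKM, log2 fold change 0.13). It was called higher under median-of-ratios scaling (0.53) and quantile normalization (0.30), but on its highest transcript the change was -0.05 (limma adjusted p = 0.712). Eif4a2, the second eIF4A helicase, was not called either. Its 28.2 and 50.5 RPKM at 120 h stood further apart than the 48.2 and 51.4 RPKM of untreated cells, and without the higher 120 h library it was called at -0.80.

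Among the eIF4E-binding proteins, Eif4ebp2 rose (76.5 and 75.1 RPKM at 120 h, against 57.0 and 58.1 RPKM untreated; log2 fold change 0.39, SE 0.08, limma adjusted p = 0.00221). Eif4ebp1 fell (46.2 and 42.9 RPKM, against 74.7 and 72.9 RPKM; log2 fold change -0.72, SE 0.09), as did Eif4ebp3 (-0.56, or -0.20 and not called under median-of-ratios scaling). Eif4enif1, which carries eIF4E into the nucleus, had 20.3 and 23.9 RPKM at 120 h, against 21.7 and 22.3 RPKM, and its log2 fold change was 0.00 (SE 0.10), or a called 0.39 under median-of-ratios scaling. Eif5a, whose hypusine-bearing product acts mainly in elongation, fell to 452 and 269 RPKM, against 832 and 799 RPKM (log2 fold change -1.22, SE 0.24, limma adjusted p = 0.00136).

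The promoters of several cap-binding and scaffold genes hold CACGTG, the E-box bound by the Myc family of growth regulators. Shown are 5 of the 8 that hold it and were lower at 120 h, chosen to cover cap binding (Eif4e), helicase (Eif4a1), scaffolds (Eif4g1, Eif3f) and Eif5a; the others were Eif3a, Eif3k and Eif4h. Windows are from RefSeq (GRCm38.p6), 5′ to 3′ on the gene's strand, with the motif in capitals. They lie at chr11:69672582-69672637 (Eif4a1, minus strand), chr3:138527179-138527234 (Eif4e, plus), chr16:20672648-20672703 (Eif4g1, plus), chr11:69921430-69921485 (Eif5a, minus) and chr7:108934322-108934377 (Eif3f, plus).
Eif4a1: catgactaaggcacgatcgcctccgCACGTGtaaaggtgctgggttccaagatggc
Eif4e: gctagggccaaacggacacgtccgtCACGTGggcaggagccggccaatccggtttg
Eif4g1: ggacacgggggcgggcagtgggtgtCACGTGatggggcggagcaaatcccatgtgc
Eif5a: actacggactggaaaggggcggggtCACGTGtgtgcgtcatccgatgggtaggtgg
Eif3f: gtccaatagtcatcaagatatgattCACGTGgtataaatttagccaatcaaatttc
The motif, which is its own reverse complement, starts 189, 64, 54, 74 and 68 bases before the start site in that order. Of the 43 initiation factor genes with a promoter in the table (300 bases around the start site), 10 held it, and of the 41 tested ones 9 did (22.0%), against 12.1% of 8860 tested genes with a promoter and 7.15% of all 32851 promoters. The windows of Eif4e, Eif4g1 and Eif5a lie inside the GENCODE gene bodies, since RefSeq places those starts further in. A match is a description of the sequence, not a sign of binding, and Eif1b, which also holds it, was not called at 120 h.

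The factors of start codon choice and subunit joining were mixed, with 5 of 8 lower and 1 higher, beside 52.7 and 27.5% of all genes. Eif1ax and Eif1a, a pair of genes for eIF1A, changed by -1.40 and -1.31, and Eif1ad, placed in this role by its symbol alone, by -1.05. Eif1, which guards the choice of start codon, had 185 and 184 RPKM at 120 h, against 193 and 184 RPKM untreated (log2 fold change -0.03, SE 0.08, limma adjusted p = 0.734), and was called higher, at 0.37, under median-of-ratios scaling. Its relative Eif1b had 32.1 and 23.0 RPKM, against 27.1 and 27.8 RPKM (log2 fold change -0.01), and its direction depended on the 120 h library kept: it was called at -0.24 without the one numbered 1 and at 0.22 without the one numbered 2. Eif5, which triggers GTP hydrolysis by eIF2, had 71.9 and 75.5 RPKM, against 61.2 and 57.0 RPKM (log2 fold change 0.31, SE 0.08, limma adjusted p = 0.00591). It was not called with array weights (limma adjusted p = 0.061) or with only the 2 groups compared (limma adjusted p = 0.0554). The call was also lost without the untreated library numbered 2, where the change was 0.26. Eif6, which keeps large subunits free, and Eif5b, which joins the subunits, changed by -0.86 and -0.58, the second not being called under median-of-ratios scaling (-0.20).

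Cells returned to E2 after 72 h looked different. Of 52 genes, 12 were higher and 6 lower than in untreated cells, which is 34.6% against 43.9% called over all genes (21.5% higher and 22.3% lower), and none moved by 1 or more on the log2 scale, where 5.57% of all genes were called lower and 3.78% higher by that much. The median log2 fold change was 0.05, against 0.018 for all genes. The count depended on the libraries in the fit: it was 35 (21 higher and 14 lower) without the 120 h group or without either of its libraries, and 5 to 9 without any 1 untreated or 72 h library. Calls over all genes moved with it, to 30.0% higher and 31.2% lower without the 120 h group, against 40.4 and 26.9% of the 52, and to 27.4 to 36.1% in all without an untreated or 72 h library, against 9.62 to 17.3% of the 52. The 12 higher and 6 lower genes were all among those 21 and 14. Eif4g1, Eif4g2 and Eif5 (higher) and Eif4e3 and Eif4ebp1 (lower) were called under every alternative and without any 1 library.

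Higher at 72 h were factors from several steps. Eif4g2 had 255 and 253 RPKM in the 72 h libraries, against 149 and 155 RPKM in untreated cells (log2 fold change 0.74, SE 0.12, limma adjusted p = 0.00155). Its listed principal transcript is short, and on its highest transcript the change was 0.59 (limma adjusted p = 0.00314). Eif4g1 had 152 and 160.4 RPKM, against 97.0 and 101 RPKM (log2 fold change 0.65, SE 0.09, limma adjusted p = 0.000565), and Eif5 had 90.2 and 92.7 RPKM, against 61.2 and 57.0 RPKM (log2 fold change 0.62, SE 0.08, limma adjusted p = 0.000444). In each of these 3 the 72 h libraries lay above those of every other group. Eif2b3, Eif1ad, Eif1a and Eif1b were higher by 0.62, 0.47, 0.40 and 0.39, and Eif4ebp2 and Eif2ak1 by 0.32 and 0.29. The largest fall was that of Eif4e3, a cap-binding relative of eIF4E, to 8.82 and 9.11 RPKM at 72 h, against 16.8 and 17.2 RPKM (log2 fold change -0.85, SE 0.08, limma adjusted p = 6.01e-05). Eif4ebp1 had 56.9 and 50.2 RPKM, against 74.7 and 72.9 RPKM (log2 fold change -0.46, SE 0.09), and Eif2a changed by -0.59.

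Of the 14 eIF3 genes, 3 were higher and 3 lower at 72 h, shares near the 21.5 and 22.3% of all genes. Eif3a had 181 and 180.4 RPKM in the 72 h libraries, against 132 and 139 RPKM untreated (log2 fold change 0.41, SE 0.09, limma adjusted p = 0.00573). Eif3j1 and Eif3j2, near-identical genes for the loosely bound subunit eIF3j, were higher by 0.39 and 0.53. Eif3k had 239 and 208 RPKM, against 349 and 353 RPKM (log2 fold change -0.65, SE 0.15, limma adjusted p = 0.0103). Eif3e and Eif3f, subunits outside the core that yeast shares, changed by -0.57 and -0.50. Each of these 6 calls was lost when some 1 library was left out.

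**Figure D3:**
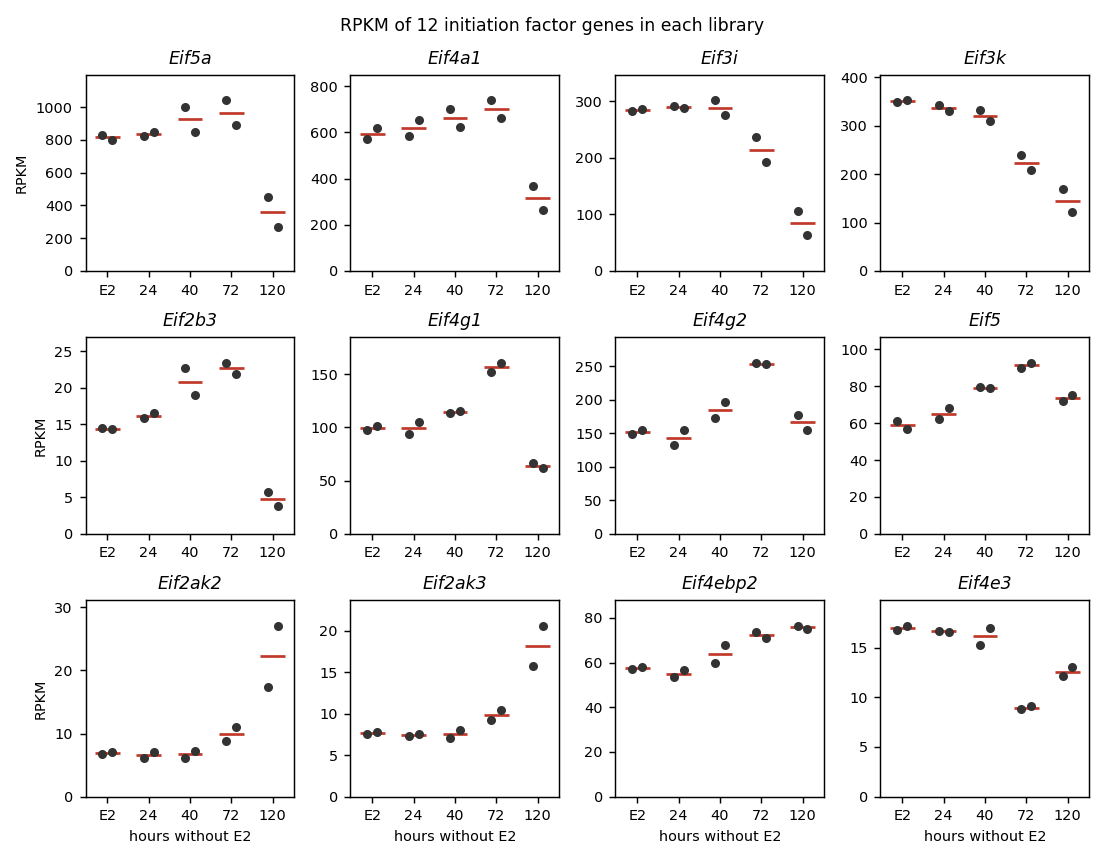
RPKM of 12 initiation factor genes in each library (points) with the group mean (line), by hours without E2, with untreated cells marked E2. Eif4g1 and Eif5 have their highest values at 72 h, Eif3i and Eif2b3 their lowest at 120 h, and Eif2ak2 and Eif2ak3 their highest at 120 h.

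The groups with shorter withdrawal and longer add-back had few called differences. In the 40 h group, 1 of 52 genes was called, against 4.29% of all genes (0.931% higher and 3.36% lower): Eif5, with 79.6 and 78.9 RPKM at 40 h, against 61.2 and 57.0 RPKM untreated (log2 fold change 0.42, SE 0.08, limma adjusted p = 0.0276). Eif5 was not called when any library of the untreated, 24 h, 40 h or 72 h group was left out. Without the 120 h group, 10 genes were called, all higher, against 5.21% of all genes higher and 9.75% lower. Besides Eif5 they were Eif1a, Eif1ad, Eif1b, Eif2b3, Eif2s1, Eif2s2, Eif3j1, Eif3j2 and Eif4e. The largest fitted change was that of Eif2b3 (22.7 and 19.0 RPKM at 40 h, against 14.5 and 14.3 RPKM; log2 fold change 0.50), which was not called with the 120 h group in the fit.

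In the 24 h group, 0 of 52 genes were called by limma, as over all genes (0.0%), and 0 of 52 had an unadjusted p under 0.05. On the recovered reads limma voom also called 0 of the 52. The fitted log2 fold changes lay between -0.08 and 0.16, the highest that of Eif2b3 (15.8 and 16.5 RPKM at 24 h, against 14.5 and 14.3 RPKM untreated).

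Set against the 40 h group, the 72 h group had 3 genes higher and 4 lower of 52, which is 13.5% against 27.7% over all genes. The higher ones were Eif4g2 (0.46, or 0.28 and not called on its highest transcript, limma adjusted p = 0.0979), Eif4g1 (0.45) and Eif2ak1 (0.22), and the lower ones Eif4e3 (-0.78), Eif4ebp1 (-0.55), Eif3k (-0.52) and Eif2a (-0.48). Eif4e3 had 8.82 and 9.11 RPKM at 72 h, against 15.3 and 17.0 RPKM at 40 h. It and Eif4ebp1 were the 2 called without any 1 library and under every alternative. The count was 2 to 4 without any 1 untreated, 40 h or 72 h library, and 22 (9 higher and 13 lower) without either 120 h library or the whole 120 h group. Without that group 22.8% of all genes were called higher and 24.7% lower, against 17.3 and 25% of the 52.

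Set against the 72 h group, the 120 h group had 41 genes lower and 3 higher of 52, where 77.4% of all genes were called (51.0% lower and 26.4% higher). Their median log2 fold change was -0.85, against -0.316 for all genes. Under median-of-ratios scaling the balance over all genes turned, to 4505 lower and 4891 higher, while 31 initiation factor genes were lower and 7 higher. Of the 41 lower calls, 38 held without any 1 library and 31 under every alternative as well. The 3 higher genes were Eif2ak2 (17.4 and 27.1 RPKM at 120 h, against 8.75 and 11.0 RPKM at 72 h; log2 fold change 1.07), Eif2ak3 (0.81) and Eif4e3 (0.45). Each of the 3 was called without any 1 library and under every alternative. Eif2b3 had the largest fall, to 5.66 and 3.84 RPKM at 120 h, against 23.4 and 21.9 RPKM at 72 h (log2 fold change -2.06, SE 0.15, limma adjusted p = 5.88e-06). Of the 12 genes higher at 72 h than in untreated cells, 7 were lower than untreated at 120 h (Eif1a, Eif1ad, Eif2b3, Eif3a, Eif3j1, Eif3j2 and Eif4g1), 3 were higher there too (Eif5, Eif2ak1 and Eif4ebp2) and 2 were not called. All 6 genes lower at 72 h were lower at 120 h. Against untreated, 78.8% of the 52 and 52.7% of all genes were called lower at 120 h. These patterns were not counted over all genes. The 72 h and 120 h contrasts share their untreated libraries.

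Ratios of 2 initiation factor genes within a library do not depend on a scaling by 1 factor per library, and several differed between groups. The RPKM of the 3 eIF4E-binding protein genes together over that of Eif4e was 3.40 and 3.54 in untreated cells, 3.31 and 3.13 at 24 h, 2.91 and 3.31 at 40 h, 2.71 and 2.86 at 72 h and 6.35 and 9.63 at 120 h. Eif4e itself had 42.6 and 40.9 RPKM untreated and 20.5 and 13.3 RPKM at 120 h. Of the 3 binding-protein genes, 2 were lower and 1 was higher at 120 h than untreated. The ratio of Eif2ak2 to its substrate gene Eif2s1 was 0.187 and 0.195 untreated, 0.131 to 0.253 in the 3 add-back groups and 0.943 and 2.08 at 120 h. Both ratios were higher in each 120 h library than in any other. The ratio of Eif4g3 to Eif4g1 was 0.339 and 0.607 at 120 h and 0.149 to 0.184 in the other 8 libraries. Between the subunits Eif3a and Eif3k the ratio was 0.379 and 0.394 untreated, 0.756 and 0.869 at 72 h, where it was highest, and 0.517 and 0.675 at 120 h. Eif4e3 over Eif4e was 0.393 and 0.421 untreated, lowest at 72 h (0.170 and 0.197) and highest at 120 h (0.590 and 0.978). These ratios were chosen after the values were seen and are given as a description.

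**Figure D4:**
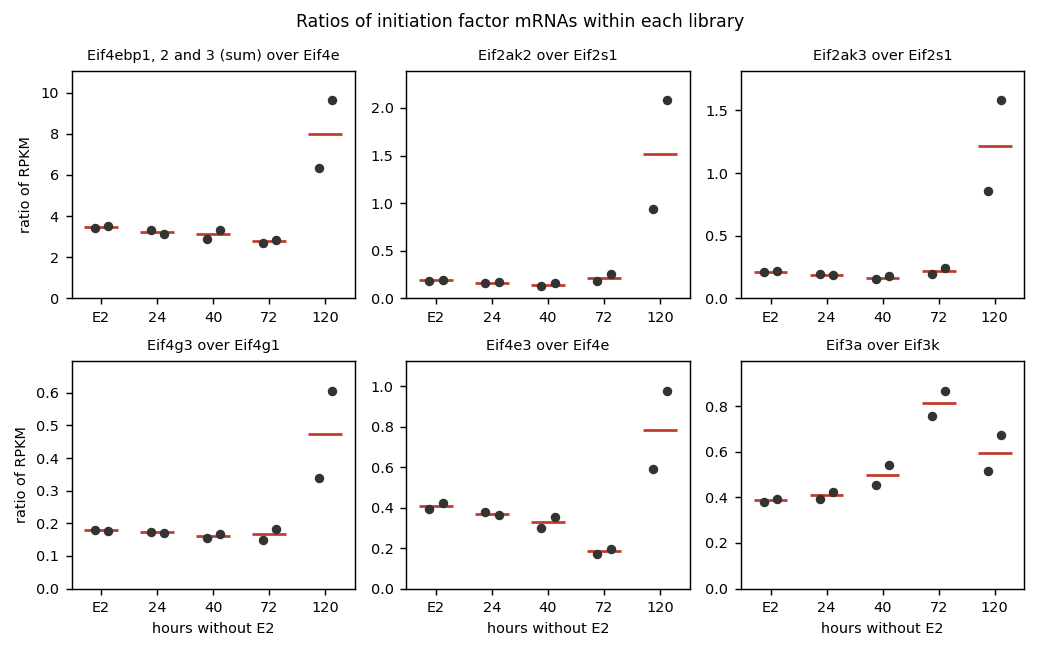
Ratios of RPKM between initiation factor genes in each library (points, linear axis) with the group mean (line), by hours without E2, with untreated cells marked E2. The ratio of eIF4E-binding protein genes to Eif4e is 6.35 and 9.63 at 120 h and at most 3.54 elsewhere.

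Other genes of translation were described by the same fit. All 13 tested genes for elongation and termination factors, of 15 listed, were lower at 120 h than untreated (median log2 fold change -1.23), or 12 of them under median-of-ratios scaling. Over all genes 52.7% were called lower in that comparison. Eef1g, a subunit of the eEF1 exchange complex, had 251 and 135 RPKM at 120 h, against 1014 and 987 RPKM untreated (log2 fold change -2.43, SE 0.26), and the kinase Eef2k and the subunit Eef1d changed by -2.27 and -1.96. The 6 genes for polyamine synthesis and the hypusine modification of eIF5A all fell (median -1.62; 5 of 6 under median-of-ratios scaling), among them Srm (24.8 and 11.6 RPKM, against 102 and 105 RPKM; log2 fold change -2.54), Odc1 (-2.51) and Sms (-2.06). Both mitochondrial initiation factor genes fell, with log2 fold changes of -1.60 for Mtif3 and -0.61 for Mtif2.

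The 25 tested partners and cap-binding regulators, of 26, were mixed, with 15 lower and 6 higher at 120 h (median -0.51, or -0.15 with 12 lower and 7 higher under median-of-ratios scaling). These shares were near the 52.7 and 27.5% of all genes. The cytoplasmic poly(A)-binding protein gene Pabpc4 had 34.4 and 17.3 RPKM, against 107 and 106 RPKM (log2 fold change -2.08, SE 0.25), and its inhibitors Paip2 and Paip2b changed by -1.68 and -1.56. Of 13 tested genes of the integrated stress response, the program downstream of the eIF2 kinases, 5 were lower and 2 higher (median -0.04), shares below the 52.7 and 27.5% of all genes, or 4 and 4 under median-of-ratios scaling, where the median was 0.31. The higher ones were Ppp1r15b, a regulatory subunit of the phosphatase that reverses eIF2 phosphorylation (36.0 and 37.3 RPKM at 120 h, against 16.3 and 16.7 RPKM; log2 fold change 1.10, SE 0.09), and Dnajc3 (0.21). Among the lower ones, Trib3 had 2.53 and 2.45 RPKM at 120 h, against 26.9 and 22.9 RPKM (log2 fold change -2.89, SE 0.15), Ddit3, which encodes CHOP, changed by -1.35 and Asns, asparagine synthetase, by -1.16. At 72 h the counts of higher and lower genes were 9 and 7 for the partners, 3 and 5 for the stress response, 2 and 2 for elongation and termination, 1 and 1 for the eIF5A enzymes and 1 and 1 for the mitochondrial factors, beside 21.5 and 22.3% of all genes. Without any 1 library the partners ranged over 6 to 11 higher and 5 to 9 lower, elongation and termination over 0 to 3 and 2 to 6, and the eIF5A enzymes over 0 to 4 and 0 to 1, with the highest counts without either 120 h library.

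Some of these values cannot be tied to 1 gene. Of its 50-base windows, Eif3j2 shared 91.8% with transcripts of other genes (90.8% with Eif3j1), Eif4ebp3 65.5%, Eif4a1 65.3% (64.9% with the pseudogene Eif4a-ps4) and Eif3j1 54.8%, so reads counted for these genes may come from another. Eif3m (40.0%), Eif2s3x (36.2%) and Eif1 (31.6%) followed. The share was under 1% for Eif2b3, Eif4g1, Eif4g2, Eif3a, Eif3g, Eif3i and Eif3k. In GRCm38 (GENCODE M21), Eif2ak2 lies at chromosome 17, 78852564 to 78882573, Eif2b3 at chromosome 4, 117019402 to 117087306, Eif3i at chromosome 4, 129591960 to 129600648, and Eif4g1 at chromosome 16, 20668313 to 20692884, and each value covers the exons of a single transcript.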

How the data were processed

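RNA of 10 libraries was extracted with a column kit and made into TruSeq libraries, per the labels' protocols. The deposited values are RPKM per Ensembl transcript, per the file headers, 79535 transcripts in each library. Per the submitters' processing notes, the authors used STAR (no version) and the GRCm38 build. Not given in the sources used here are the counting program, the annotation release and the use of strand, so overlapping genes are uncertain. Transcripts were matched to GENCODE M21 (77720, or 97.7%; the 1815 others held 2.64 to 3.24% of RPKM). Each of 26206 genes (17236 coding) was represented by 1 transcript (coding, APPRIS principal, CCDS, longest), without summing isoforms.

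RPKM values times transcript length came out as whole reads for 100% of the 3981 to 4415 values tested per library (rounding error plus 0.02 reads); limma voom on those recovered reads was an alternative. The main test was the moderated linear model of limma 3.58.1 (R 4.3.3), with a mean-variance trend, on log2(RPKM + 1), a scale that understates changes of low genes. It used the 12990 genes with at least 1 RPKM in at least 2 libraries, with 1 term for group and 1 spread over all 10 libraries (residual degrees of freedom 5, prior 3.04). Tests of the 6 comparisons were 2-sided, with Benjamini-Hochberg adjustment over all genes and calls at an adjusted p under 0.05. The pipeline was tested on simulated data in which few genes were shifted. That test does not bear on comparisons in which most genes were called. Alternatives were other scalings, a pseudocount of 0.1, no filter, the highest transcript, array weights, only the groups compared, a replicate block and leaving out each library; leaving out the 120 h group was added after seeing the data.

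The members and gene lists were chosen with earlier results of these data known. Named by rule were members called with a log2 fold change of at least 1, those highest, most and least changed within a role, those changed in opposite directions, and the 3 most changed called genes of each list; other members named, and the ratios and motifs, were chosen after values were seen.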

Additional observations from a re-analysis of the deposited data

Results flagged for a closer look

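For 7 initiation factor genes the change from untreated cells was called higher in the 72 h group and lower in the 120 h group, so their changes went opposite ways. Since the genes were picked for these calls, which share the untreated libraries, the difference between the changes was largely fixed by the choice and is given as a description. That difference, the 120 h group against the 72 h group, was a log2 fold change of -2.06 for Eif2b3, -1.70 for Eif1a and -1.51 for Eif1ad. It was -1.40 for Eif3j2 and -1.34 for Eif3j1, whose reads cannot be told apart over most of Eif3j2, -1.28 for Eif4g1 and -1.08 for Eif3a. The rise at 72 h was called without any 1 library for Eif4g1 only. Groups of 2 libraries are too small for a check of single outlying samples.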

How the results depend on the processing

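At 120 h against untreated, the median log2 fold change of the 52 genes was -1.0 with a pseudocount of 0.1, -0.55 with median-of-ratios scaling, -0.77 with quantile normalization and -1.10 to -0.79 without any 1 library. At 120 h against 72 h it was -0.90, -0.47 and -0.77 under the same 3 settings, -0.80 with no filter and -1.03 to -0.81 without any 1 library. Quantile normalization gave medians of 0.15 at 72 h against untreated and 0.06 at 72 h against 40 h, where leaving out a library gave -0.07 to 0.04. Calls at 72 h against untreated were 33 with array weights, 32 with only those groups, 35 without the 120 h group and 5 to 35 without any 1 library. Calls at 40 h against untreated were 0 with quantile normalization, 14 with array weights, 12 with only those groups, 10 without the 120 h group and 0 to 10 without any 1 library. Calls at 72 h against 40 h were 4 on the highest transcript, 18 with array weights, 14 with only those groups, 22 without the 120 h group and 2 to 22 without any 1 library. Calls over all genes moved with these counts. With array weights they were 58.5% at 72 h and 22.0% at 40 h against untreated, and 38.7% at 72 h against 40 h. The 52 genes gave 63.5, 26.9 and 34.6%. With only the groups compared, all genes gave 55.1, 19.3 and 34.9%, against 61.5, 23.1 and 26.9% of the 52. Without the 120 h group, all genes gave 61.2, 15.0 and 47.5%, against 67.3, 19.2 and 42.3%. Median-of-ratios scaling reversed Eif1 (0.37) and Eif1b (0.38) at 120 h against untreated, and Eif5 (0.10) and Eif4ebp1 (0.15) at 120 h against 72 h. Eif1b was 0.22 without the 120 h library numbered 2 and -0.24 without the one numbered 1. The cause was not tested.

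Deviations of libraries with the same number were positively correlated in every pair of groups (0.034 to 0.639), most between 72 h and 120 h. A shared effect of the number is therefore possible. The rule for pairing asked for a correlation over 0.1 in every pair, which 8 of 10 pairs met. The numbers were therefore not taken as pairing, and the main model has no term for them. A replicate block gave 12 calls at 72 h against 40 h, where 7 were made without it, 23 at 72 h, 47 at 120 h, 1 at 40 h and 0 at 24 h against untreated, and 45 at 120 h against 72 h. Over all genes the block gave 34.1% at 72 h against 40 h, where 27.7% were called without it. It gave 49.5% at 72 h, 82.9% at 120 h and 5.36% at 40 h against untreated, and 80.2% at 120 h against 72 h. The shares of the 52 genes with the block were 23.1, 44.2, 90.4, 1.92 and 86.5% in that order. With 2 libraries a group, their number and not read depth limits precision.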
